A study of Mus with 16 samples.

Results

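Stoml2, also called SLP-2, belongs to the family of proteins that share a stomatin, prohibitin, flotillin and HflK/C domain, and 8 genes around it were followed here in 16 mouse tumours. They were Stoml2 itself, the other stomatin genes Stom and Stoml1, the prohibitin genes Phb and Phb2, the membrane proteases Yme1l1 and Parl, and Opa1, a dynamin-like GTPase of the same membrane. The genes were picked by symbol among the 38087 genes of the count table, because the level of Stoml2 crossed over: it was lower under treatment in tumours with B cells and higher under treatment in tumours without them. The question was whether its relatives and partners showed the same pattern. The values that drew attention to Stoml2 are described below without a test.

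The tumours were B16 melanomas, a transplantable mouse melanoma line, grown under the skin of C57BL/6 mice for 7 days. The 4 groups of 4 tumours were formed by crossing 2 host states with 2 treatments. Hosts were labelled WT syngeneic or B cells depleted, and mice were untreated or received an anti-PD-L1 antibody 3 times at intervals of 3 days, with tumours taken 3 days after the last dose. Mice in the study were females used at 6 to 8 weeks. The labels do not say whether the depleted hosts lacked B cells by gene deletion or by antibody, and the column names call them BKO. The labels give the same tumour line in all 4 groups. The design text of the series also names an injection of 3M-052 or control into the tumour, which no sample label assigns, so that any such difference between tumours is unknown. The 4 libraries of a group are named A to D after the column names. Nothing ties a library to a litter or a day, and the p-values below measure the spread between these tumours.

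In mitochondria, the prohibitins form ring-shaped scaffolds of alternating Phb and Phb2 subunits in the inner membrane. Stoml2 binds cardiolipin there and organises membrane domains. It has been described in a complex with the intramembrane protease Parl and the AAA protease Yme1l1. Yme1l1 and another protease, Oma1, cut Opa1, which fuses inner membranes and shapes cristae. Stomatin itself, Stom, is a plasma membrane protein known from red blood cells, and Stoml1 is a relative found at endosomes. Stoml2 has also been studied in T cells. B16 tumours are rich in melanoma cells, and bulk RNA cannot tell a change in cell numbers from a change in RNA per cell.

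All 8 genes passed the filter on low counts, as did 19340 genes in total, with 182 to 22004 reads per gene and library. Library totals ran from 12544573 to 35647409 reads. Melanocyte markers summed to 17769 to 22480 CPM (counts-per-million values on trimmed-mean library sizes) over all libraries. Markers of B cells were scarce in all groups. The 6-gene list summed to 1.26 to 5.58 CPM in WT untreated, 1.30 to 2.23 in WT anti-PD-L1, 0.956 to 1.93 in depleted untreated and 0.710 to 1.75 in depleted anti-PD-L1 tumours, ranges that overlapped. Igkc, an antibody light chain, had 39 and 26 reads in the WT groups and none in either depleted group. Ms4a1 had 4 reads in WT untreated and 12 in depleted untreated tumours, and Cd79a had 92 and 77. The libraries differed in how the level of a gene depended on its GC content. This GC slope was the change in log2 CPM, relative to a gene's own mean, per 10 percentage points of GC. It was 0.19 ± 0.05 (SD, n = 4) in WT untreated tumours, -0.24 ± 0.16 in WT anti-PD-L1 tumours, -0.05 ± 0.48 in depleted untreated tumours and 0.11 ± 0.12 in depleted anti-PD-L1 tumours. Library B of the depleted untreated group stood apart with a slope of -0.72. The calls below are therefore also given with the GC slope as a covariate. In WT tumours the slope went with treatment, at 0.14 to 0.25 without the antibody and -0.46 to -0.09 with it. The covariate fit therefore cannot fully separate treatment from GC slope there, and the interaction shares this limit. Its adjustment rests on slopes within groups, which varied most in depleted untreated tumours.

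Stoml2 lies on chromosome 4 at 43027690 to 43031710, on the minus strand of the mm10 build, in a span of 4021 bases with 50.9% GC. A lincRNA on the other strand, AL672276.2, overlaps 17.7% of the span. Its own count was 10.7% of the Stoml2 count. If strand was not used in counting, the reads of the overlap cannot be assigned to either gene. In WT untreated tumours Stoml2 was measured at 48.8, 49.8, 52.1 and 46.8 CPM in libraries A to D. In WT anti-PD-L1 tumours it was at 30.8, 27.8, 25.1 and 22.7 CPM. The WT groups did not overlap, and each treated tumour was below each untreated one.

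In depleted tumours the order was the opposite. Untreated libraries A to D had 29.9, 21.3, 26.6 and 30.9 CPM of Stoml2, and anti-PD-L1 libraries had 42.7, 38.9, 44.1 and 42.3 CPM. Again there was no overlap. The 4 group means were 49.4 ± 2.21 CPM (SD, n = 4) for WT untreated, 42.0 ± 2.20 for depleted anti-PD-L1, 27.2 ± 4.32 for depleted untreated and 26.6 ± 3.49 for WT anti-PD-L1. The upper pair did not overlap, whereas the lower pair had ranges that lay over each other.

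**Figure D1:**
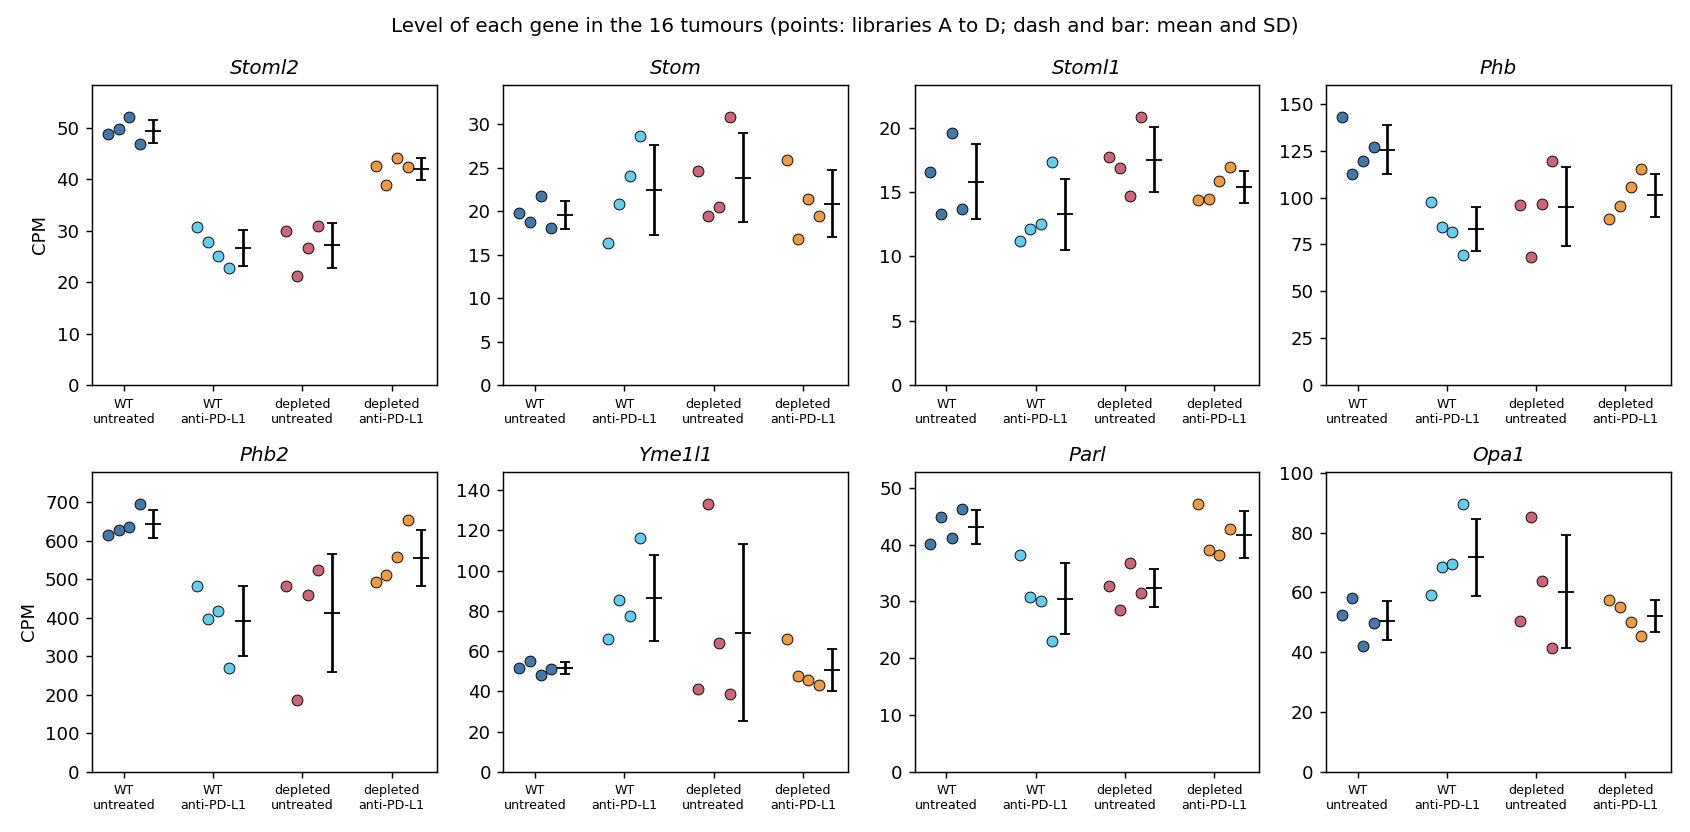
Level of the 8 genes in CPM (vertical axis, starting at 0) in each of the 16 tumours, by group. Points are libraries A to D from left to right, and the dash with its bar is the mean and SD of 4 libraries. Stoml2 is high in WT untreated (mean 49.4 CPM) and depleted anti-PD-L1 tumours (42.0 CPM) and low in the other groups. The group means of Phb, Phb2 and Parl have the same order, and Yme1l1 and Opa1 reach their highest group mean in WT anti-PD-L1 tumours.

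Fitted over all genes with edgeR, Stoml2 differed by -0.89 ± 0.13 on the log2 scale (SE) between treated and untreated WT tumours, a level 46.1% lower. It differed by 0.63 ± 0.13 between treated and untreated depleted tumours, a level 54.4% higher. Between depleted and WT hosts the difference was -0.86 ± 0.13 in untreated tumours and 0.66 ± 0.13 in treated tumours. The interaction, the host difference under treatment minus the host difference without it, was 1.52 ± 0.18. Such a crossover without overlap in either host was seen in 357 genes, or 1.85% of all tested genes, and 224 of these ran in the direction of Stoml2. In 175 genes no overlap was found in any of the 4 comparisons, with opposite directions in both pairs, and 113 of them, Stoml2 included, had its direction. Of the other 7 genes followed, the protease gene Parl alone crossed over without overlap under treatment in both hosts.

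The prohibitins resembled Stoml2 in WT tumours and less clearly in depleted ones. Phb is on chromosome 11 at 95666957 to 95680773, plus strand, with 50.03% GC. It had 142.9, 112.8, 119.4 and 127.0 CPM in WT untreated tumours and 97.5, 84.3, 81.7 and 69.3 CPM in WT anti-PD-L1 tumours, with no overlap. In depleted tumours the untreated values were 96.0, 68.2, 96.3 and 119.6 CPM and the treated values 88.6, 95.5, 105.4 and 115.2 CPM, which overlapped. The fitted difference of Phb under treatment was -0.59 ± 0.16 in WT tumours (edgeR adjusted p = 0.0822) and 0.09 ± 0.16 in depleted tumours (edgeR adjusted p = 0.846). Its interaction was 0.68 ± 0.22 (edgeR adjusted p = 0.0609), which missed the threshold of 0.05. Adding the GC slope as a covariate, the interaction of Phb was 0.28 ± 0.16 (edgeR adjusted p = 0.419) and its difference in WT tumours -0.29 ± 0.11 (edgeR adjusted p = 0.381). A lincRNA, AL732490.1, shares 20.03% of the Phb span and had a count equal to 10.4% of the Phb count.

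Phb2, on chromosome 6 at 124712336 to 124716950 on the plus strand, had 53.3% GC, the highest of the 8 genes. Its WT untreated values were 613.6, 627.7, 635.9 and 695.7 CPM, and its WT anti-PD-L1 values were 483.4, 396.2, 416.6 and 268.3 CPM. Depleted untreated tumours had 481.6, 186.2, 458.1 and 524.0 CPM, with library B far below the others. Depleted anti-PD-L1 tumours had 491.9, 511.6, 558.4 and 654.6 CPM. Without overlap, Phb2 was lower in treated than in untreated WT tumours, lower in depleted than in WT untreated tumours, and higher in depleted than in WT treated tumours.

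The interaction of Phb2 was 1.14 ± 0.34 and passed the threshold narrowly (edgeR adjusted p = 0.0495). Its single differences did not, at -0.72 ± 0.24 for treatment in WT tumours (edgeR adjusted p = 0.105) and 0.43 ± 0.24 in depleted tumours (edgeR adjusted p = 0.552). Without library B of the depleted untreated group the interaction of Phb2 was 0.90 ± 0.22 (edgeR adjusted p = 0.0210). It missed the threshold without any one of 12 other libraries. With the GC slope as a covariate it was 0.41 ± 0.19 (edgeR adjusted p = 0.315), and the difference of Phb2 in WT tumours was -0.13 ± 0.14 (edgeR adjusted p = 0.767). An antisense gene, Gm15884, overlaps 29.9% of the Phb2 span and had a count equal to 38.6% of that of Phb2, so part of the Phb2 count is uncertain.

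Of the proteases described in a complex with Stoml2, Parl passed the test for the interaction and Yme1l1 did not. Parl is on chromosome 16 at 20279820 to 20302387, minus strand, with 43.0% GC. It was at 40.2, 44.9, 41.1 and 46.2 CPM in WT untreated tumours and at 38.2, 30.8, 30.0 and 23.0 CPM in WT anti-PD-L1 tumours. Its depleted untreated values were 32.7, 28.6, 36.7 and 31.5 CPM, and its depleted anti-PD-L1 values 47.2, 39.0, 38.2 and 42.7 CPM. These groups were apart in every comparison except that of the hosts under treatment, where the highest WT library (38.2 CPM) and the lowest depleted library met.

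The interaction of Parl was 0.87 ± 0.20 (edgeR adjusted p = 0.0246), the smallest p of the 7 genes. Its treatment difference was -0.50 ± 0.14 in WT tumours (edgeR adjusted p = 0.0869) and 0.37 ± 0.14 in depleted tumours (edgeR adjusted p = 0.367), neither past the threshold. The interaction remained positive without each library in turn, at 0.75 to 0.99, but missed the threshold without WT untreated library C (edgeR adjusted p = 0.0520) or D (edgeR adjusted p = 0.0526). With the GC slope as a covariate it was 0.73 ± 0.21 (edgeR adjusted p = 0.0929).

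Yme1l1 lies on chromosome 2 at 23156369 to 23199260, plus strand, and had the lowest GC content of the 8 genes, 37.5%. WT untreated tumours had 51.7, 55.3, 48.1 and 51.1 CPM and WT anti-PD-L1 tumours 66.1, 85.5, 77.4 and 116.4 CPM, all of them higher. Depleted untreated tumours had 40.9, 133.3, 64.2 and 38.6 CPM, so that library B exceeded every library of the other groups and libraries A and D lay below every WT library. Depleted anti-PD-L1 tumours had 65.8, 47.8, 45.8 and 43.2 CPM. The interaction of Yme1l1 was -1.20 ± 0.42 (edgeR adjusted p = 0.0786), 0.04 ± 0.14 with the GC slope as a covariate (edgeR adjusted p = 0.913) and -0.67 ± 0.26 without that library (edgeR adjusted p = 0.116).

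Opa1, on chromosome 16 at 29579334 to 29654884, plus strand, with 40.4% GC, was the remaining gene. Its WT untreated values were 52.4, 58.1, 42.1 and 49.8 CPM against 59.2, 68.5, 69.7 and 89.7 CPM in WT anti-PD-L1 tumours. Depleted untreated tumours had 50.6, 85.1, 63.9 and 41.5 CPM and depleted anti-PD-L1 tumours 57.4, 55.3, 50.03 and 45.4 CPM. The interaction of Opa1 was -0.71 ± 0.27 (edgeR adjusted p = 0.0910), and -0.07 ± 0.16 with the GC slope as a covariate (edgeR adjusted p = 0.864). Processing of the Opa1 protein is not visible in gene counts.

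The stomatin relatives did not share the pattern in their values. Stom, on chromosome 2 at 35313986 to 35336976, minus strand, with 46.4% GC, ranged from 18.02 to 21.7 CPM in WT untreated, 16.4 to 28.6 in WT anti-PD-L1, 19.4 to 30.8 in depleted untreated and 16.8 to 25.9 in depleted anti-PD-L1 tumours. All 4 groups overlapped, and the interaction was -0.40 ± 0.26 with a 95% interval of -0.95 to 0.16 (edgeR adjusted p = 0.309). Stoml1, on chromosome 9 at 58253164 to 58262523, plus strand, with 52.2% GC, ranged from 13.3 to 19.6 CPM in WT untreated and from 11.2 to 17.3 CPM in WT anti-PD-L1 tumours. It ranged from 14.7 to 20.8 CPM in depleted untreated and from 14.4 to 16.9 CPM in depleted anti-PD-L1 tumours. Its interaction was 0.06 ± 0.24 with a 95% interval of -0.44 to 0.57 (edgeR adjusted p = 0.881).

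Counted together, 0 of the 7 other genes were called by edgeR for anti-PD-L1 in WT tumours, where 0.00517% of all tested genes were called. None, 0 of 7, was called for anti-PD-L1 in depleted tumours (background 0.0672%), for the host in untreated tumours (background 0.889%) or for the host in treated tumours (background 0.698%). For the interaction 2 of 7 were called, Parl and Phb2, against a background of 7.62%. At an unadjusted p under 0.05 the counts of the 7 were 5 in WT tumours (background 26.4%), 1 in depleted tumours (background 10.4%), 3 for the host in untreated tumours (background 19.2%), 3 for the host in treated tumours (background 25%) and 5 for the interaction (background 30.8%).

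The count of calls depended on the tool. DESeq2 called 3 of the 7 genes for anti-PD-L1 in WT tumours (Phb, Phb2 and Parl), where it called 8.9% of all genes. It called 1 for the host in treated tumours (Parl, background 7.72%) and 4 for the interaction (Phb, Phb2, Parl and Yme1l1, background 16.8%). It called 0 for anti-PD-L1 in depleted tumours (background 1.74%) and 0 for the host in untreated tumours (background 5.13%). With limma voom the counts were those of edgeR in all 5 comparisons, beside backgrounds of 0.103% for anti-PD-L1 in WT tumours, 0.0414% in depleted tumours, 1.17% for the host in untreated tumours, 0.377% in treated tumours and 7.87% for the interaction. Given the GC slope as a covariate, edgeR called 0 of 7 for the interaction, beside 0.91% of all genes. In fits of only the groups compared it called 5 of 7 for anti-PD-L1 in WT tumours (background 29.6%) and 2 for the host in treated tumours (background 14.3%). Groups did not overlap in 5 of the 7 genes for anti-PD-L1 in WT tumours, where 31.2% of all genes did not overlap. The count was 1 in depleted tumours (background 4.84%), 2 for the host in untreated tumours (background 12.7%) and 3 for the host in treated tumours (background 21.8%). Without library B of the depleted untreated group, edgeR called 5 of 7 genes for anti-PD-L1 in WT tumours, namely Phb (-0.59), Phb2 (-0.72) and Parl (-0.50) lower and Yme1l1 (0.75) and Opa1 (0.50) higher, and it called 21% of all genes there. It also called 4 for the host in treated tumours (background 18.6%), Phb2 (0.52) and Parl (0.47) higher and Yme1l1 (-0.76) and Opa1 (-0.45) lower.

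**Figure D2:**
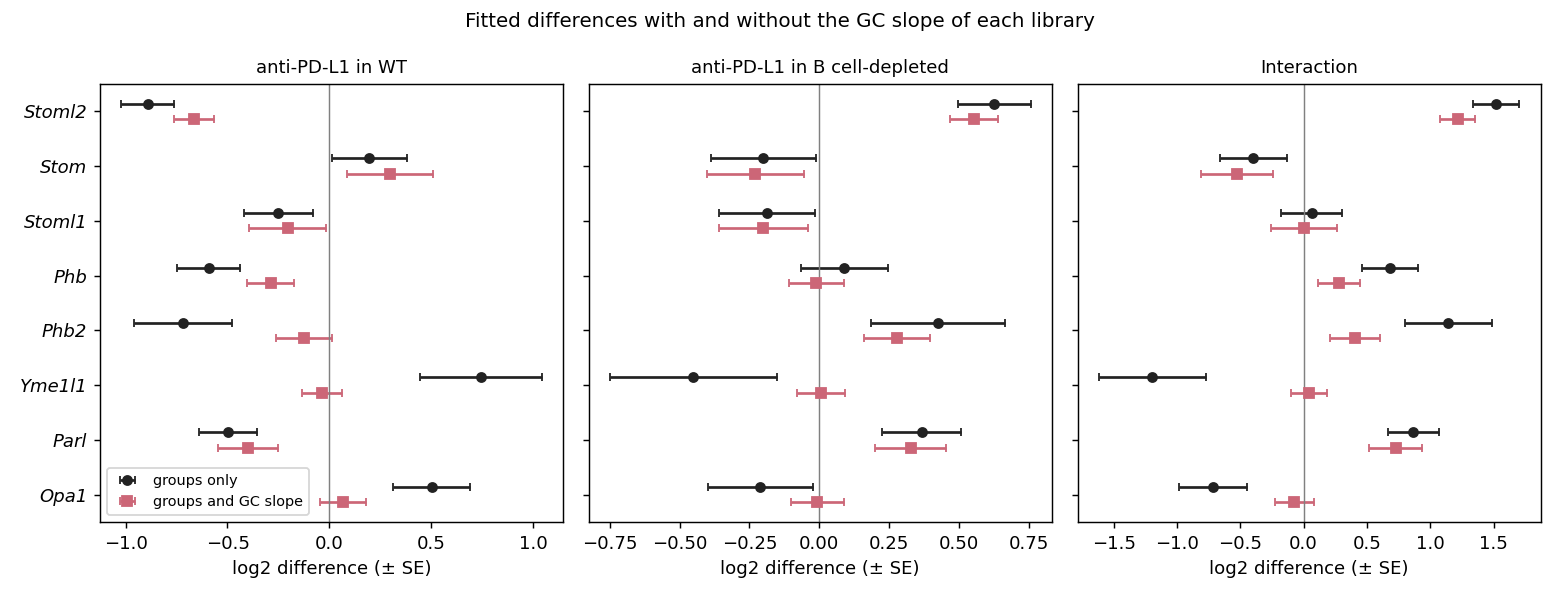
Fitted log2 difference (horizontal axis, ± SE) of the 8 genes under anti-PD-L1 in WT tumours, under anti-PD-L1 in depleted tumours, and their interaction, with groups only (circles) and with the GC slope of each library added (squares). Stoml2 changes from 1.52 to 1.22 and Parl from 0.87 to 0.73 in the interaction, whereas Yme1l1 changes from -1.20 to 0.04 and Phb2 from 1.14 to 0.41.

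The GC content of a gene went along with its interaction over all tested genes. The median interaction was -0.47 for genes under 40% GC, -0.28 from 40 to 45%, 0.05 from 45 to 50%, 0.38 from 50 to 55% and 0.63 over 55%. Yme1l1 had -1.20, under the lower bound of -0.83 of the middle 50% of its range, and Opa1 had -0.71, under its bound of -0.62. Parl, at 43.0% GC, had 0.87, above the middle 50% of the genes of its range, which ran from -0.62 to 0.09. Stoml2 had 1.52 and Phb2 had 1.14 in the range where the middle 50% ended at 0.75, and Phb (0.68) and Stoml1 (0.06) fell inside it. Stom had -0.40, just under the lower bound of -0.33 of its range.

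**Figure D3:**
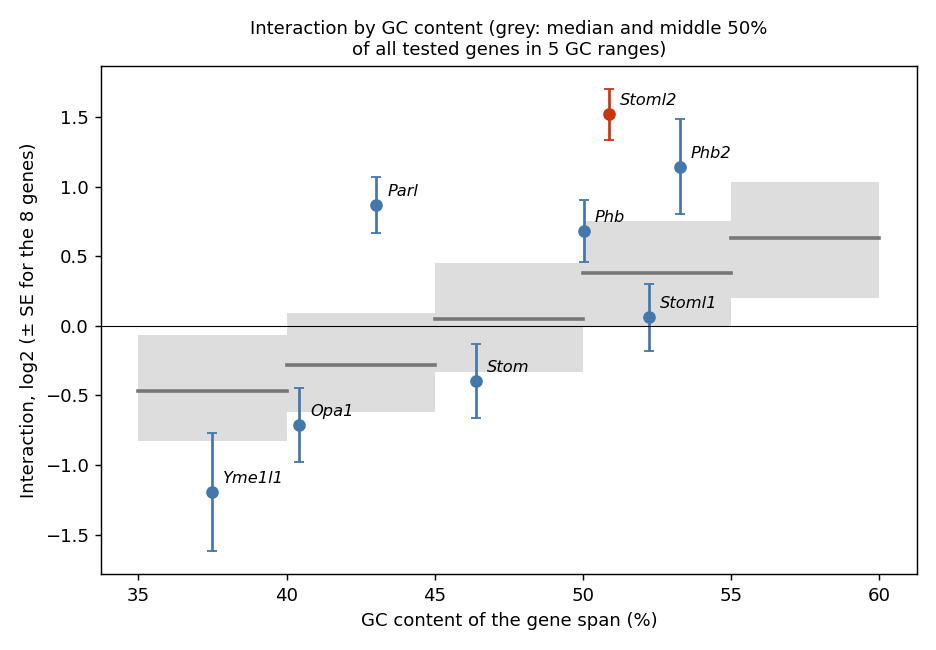
Interaction on the log2 scale (vertical axis) against the GC content of the gene span (horizontal axis, %) for the 8 genes, with SE bars. Grey boxes give the middle 50% and the line the median of all tested genes in 5 GC ranges. The medians run from -0.47 to 0.63, and among the genes not chosen for this value Parl (0.87) and Phb2 (1.14) lie above the box of their range and Yme1l1 (-1.20), Opa1 (-0.71) and Stom (-0.40) below it.

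With the GC slope as a covariate, Stoml2 differed by -0.66 ± 0.10 under treatment in WT tumours and by 0.55 ± 0.09 in depleted tumours. The host difference was -0.74 ± 0.09 in untreated and 0.47 ± 0.09 in treated tumours, and the interaction 1.22 ± 0.14. Library by library, depleted untreated tumours A and D had GC slopes of 0.29 and 0.32, above the highest WT untreated slope of 0.25. Their Stoml2 levels were 29.9 and 30.9 CPM, and the lowest WT untreated level was 46.8 CPM. Parl in these libraries was at 32.7 and 31.5 CPM, under the lowest WT untreated level of 40.2 CPM. Phb2 was at 481.6 and 524.0 CPM, also below each WT untreated value. Yme1l1 was at 40.9 and 38.6 CPM, below each WT untreated value too, and library B of that group was at 133.3 CPM. Within WT anti-PD-L1 tumours, GC slopes of -0.09, -0.18, -0.25 and -0.46 went with Stoml2 levels of 30.8, 27.8, 25.1 and 22.7 CPM. Within depleted untreated tumours, slopes of 0.32, 0.29, -0.10 and -0.72 went with 30.9, 29.9, 26.6 and 21.3 CPM. In WT untreated and in depleted anti-PD-L1 tumours Stoml2 did not keep the order of the slopes. The fit with the covariate cannot fully separate treatment from GC slope in WT tumours, and the part of the GC slope was not tested otherwise.

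**Figure D4:**
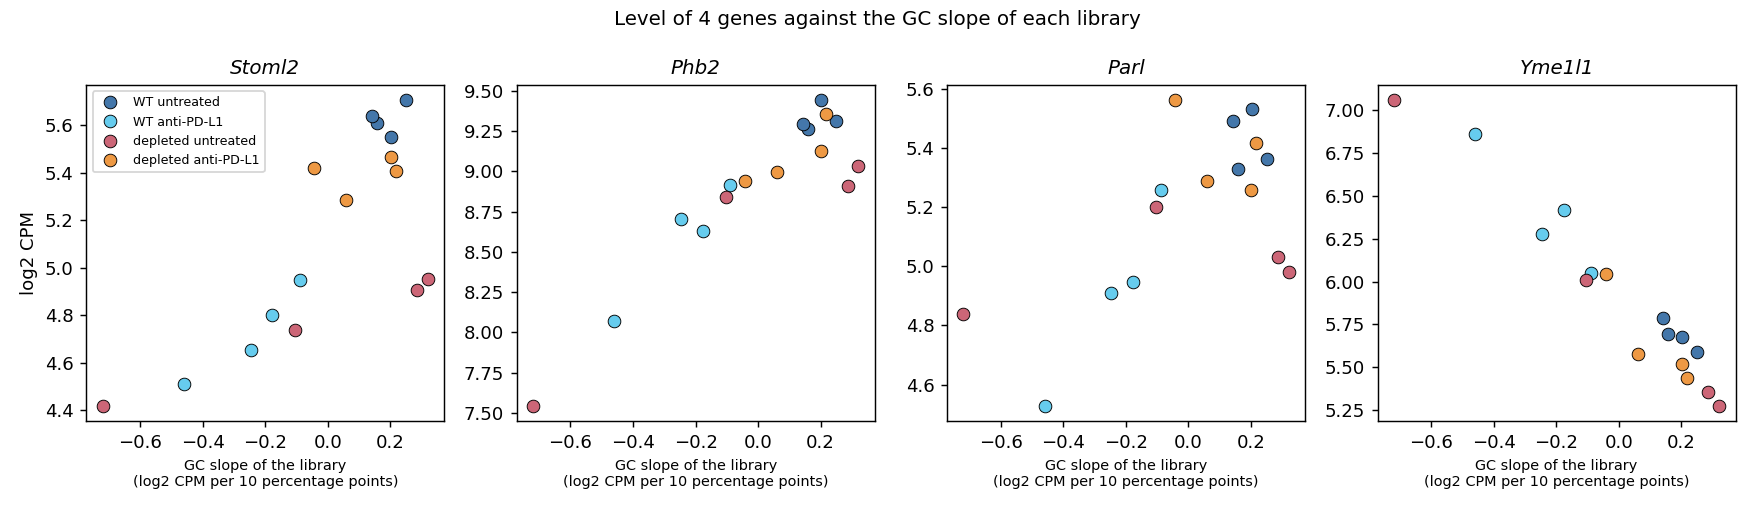
Level on the log2 CPM scale (vertical axes) of Stoml2, Phb2, Parl and Yme1l1 against the GC slope of each of the 16 libraries (horizontal axis, log2 CPM per 10 percentage points of GC), coloured by group. Yme1l1 runs downward with the slope over all groups. Stoml2 rises with the slope within WT anti-PD-L1 and within depleted untreated tumours. The depleted untreated tumours with slopes of 0.29 and 0.32 have Stoml2 levels (29.9 and 30.9 CPM) below the lowest WT untreated tumour (46.8 CPM).

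Ratios within a library set Stoml2 against its partners directly. The log2 ratio of Stoml2 to Phb2, in CPM, was -3.70 ± 0.13 (SD, n = 4) in WT untreated, -3.85 ± 0.22 in WT anti-PD-L1, -3.83 ± 0.47 in depleted untreated and -3.71 ± 0.18 in depleted anti-PD-L1 tumours, all overlapping. Depleted untreated ratios ran from -4.10 to -3.12, and library B alone gave the upper end. Libraries A, C and D of that group lay below every WT untreated ratio (lowest -3.89). They also lay below every depleted anti-PD-L1 ratio (lowest -3.95). The overlap with those groups thus rested on library B. The ratio to Phb was -1.34 ± 0.18, -1.64 ± 0.05, -1.79 ± 0.14 and -1.26 ± 0.16 in the same order. The ratio to Parl was 0.20 ± 0.14, -0.18 ± 0.13, -0.26 ± 0.22 and 0.01 ± 0.15. The ratio of Stoml2 to Opa1 spread further, at -0.03 ± 0.23, -1.42 ± 0.43, -1.11 ± 0.68 and -0.30 ± 0.19. The ratio to Yme1l1 was -0.06 ± 0.12, -1.67 ± 0.52, -1.17 ± 1.07 and -0.25 ± 0.28. The group means of the ratio lay closest together for Phb2 and farthest apart for Yme1l1. A ratio within a library does not remove the GC slope where the genes differ in GC content. That content was 50.9% for Stoml2, 53.3% for Phb2 and 37.5% for Yme1l1. Its part in the ratios was not tested.

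Over the 16 libraries, the genes whose log2 CPM followed Stoml2 most closely were Rbm17 (Pearson r = 0.955), Arf1, Itprip, Srsf2, Fam96b, Eif4a3, Oscp1, Tmem11, Gm17138 and Enkd1 (r = 0.938). Rbm17, Srsf2 and Eif4a3 act in RNA splicing and exon junctions, Arf1 in vesicle budding, and Tmem11 in mitochondrial shape. The spans of Itprip, Srsf2 and Gm17138 lie within those of Wdr96, Mettl23 and Angel1, so their counts may be shared. Among the relatives and partners followed here, r with Stoml2 was 0.863 for Parl, 0.850 for Phb2 and 0.812 for Phb, which ranked 281, 382 and 799 of 19339 genes. It was 0.078 for Stoml1, -0.313 for Stom, -0.682 for Yme1l1 and -0.730 for Opa1. These r values take in the group pattern for which Stoml2 was chosen. With the group means taken out, r was 0.851 for Phb2, 0.778 for Phb, 0.579 for Parl and 0.102 for Stom. It was then -0.047 for Stoml1, -0.844 for Yme1l1 and -0.867 for Opa1. The 10 closest genes ran from 0.689 (Srsf2) to 0.935 (Tmem11) in the same measure. The 16 libraries share groups, depth and GC slopes, and the r values are descriptions.

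Of 10 genes within 100 kb of Stoml2, 9 were tested. Vcp, which encodes the AAA ATPase p97 that pulls proteins out of membranes, lies 27183 bases away and crossed over without overlap in all 4 comparisons. Its differences were -0.52 ± 0.13 under treatment in WT tumours (edgeR adjusted p = 0.0777), 0.48 ± 0.13 in depleted tumours (edgeR adjusted p = 0.165), -0.61 ± 0.13 for the host in untreated tumours (edgeR adjusted p = 0.0375) and 0.38 ± 0.13 in treated tumours (edgeR adjusted p = 0.108). The interaction of Vcp was 1.00 ± 0.18 (edgeR adjusted p = 0.0150), and 0.93 ± 0.20 with the GC slope as a covariate (edgeR adjusted p = 0.0356). The gene 1700022I11Rik, whose span overlaps that of Vcp, had an interaction of 1.06 ± 0.19 (edgeR adjusted p = 0.0150). With the covariate it was 1.02 ± 0.22 (edgeR adjusted p = 0.0349). If strand was not used, its reads cannot be told from those of Vcp where they overlap. The nearer genes B230312A22Rik (0.66 ± 0.22) and Pigo (0.72 ± 0.28), and also AL672276.2 (0.62 ± 0.33), were not called for the interaction. Fancg (0.17 ± 0.21), Dnajb5 (0.30 ± 0.27), AL672276.1 (-0.34 ± 0.52) and Unc13b (0.00 ± 0.23) were not called either.

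**Figure D5:**
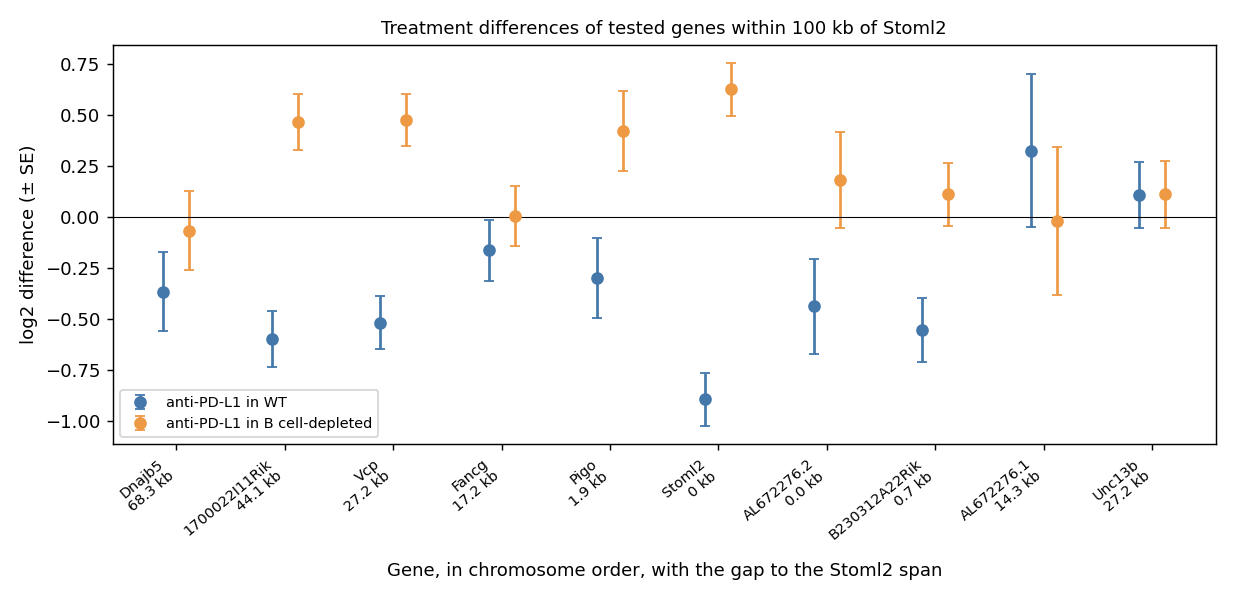
Log2 difference under anti-PD-L1 (vertical axis, ± SE) in WT and in depleted tumours for Stoml2 and the 9 tested genes within 100 kb, in chromosome order with the gap to the Stoml2 span in kb. Vcp (-0.52 and 0.48) and the overlapping 1700022I11Rik have the two-way pattern of Stoml2 (-0.89 and 0.63), and Unc13b has nearly equal values in both hosts.

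The wider mitochondrial lists were mixed in direction. Among 4 tested genes of the rest of the SPFH family, 0 were called by edgeR in any comparison, with at most 1 of 4 at an unadjusted p under 0.05 in a comparison. Erlin2, an endoplasmic reticulum member, had -0.28 ± 0.12 for the host in treated tumours (edgeR adjusted p = 0.176). Flot2, a flotillin of membrane rafts, had -0.36 ± 0.15 for the host in untreated tumours (edgeR adjusted p = 0.211). Of 16 proteases and quality control genes 0 were called by edgeR, with at most 2 at an unadjusted p under 0.05 in a comparison and medians from -0.10 to 0.07 over the 5 comparisons. Oma1, the stress protease for Opa1, had -0.48 ± 0.18 for the host in treated tumours (edgeR adjusted p = 0.137). Pmpcb, a subunit of the presequence protease, had -0.43 ± 0.14 for the host in untreated tumours (edgeR adjusted p = 0.127).

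In the fusion and fission list, 2 of 10 tested genes were called for the interaction, 1 in each direction, beside the 7.62% of all genes. Fis1, an outer membrane fission adaptor, was higher (0.81 ± 0.19, edgeR adjusted p = 0.0266). It was also called for the host in treated tumours (0.65 ± 0.14, edgeR adjusted p = 0.0450), where 0.698% of all genes were. Mtfr1, a fission regulator, was lower for the interaction (-0.86 ± 0.22, edgeR adjusted p = 0.0335). Of 10 cristae genes, Chchd3, a core subunit of the cristae organising complex, was lower for the interaction (-0.73 ± 0.20, edgeR adjusted p = 0.0400). Of 10 cardiolipin genes, Lclat1, an acyltransferase for cardiolipin, was lower (-0.70 ± 0.21, edgeR adjusted p = 0.0495). Of 6 mitochondrial chaperones 0 were called by edgeR and at most 2 had an unadjusted p under 0.05 in a comparison. Trap1 and Dnaja3 had interactions of -0.48 ± 0.16 and -0.38 ± 0.15.

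Of 17 import genes, 3 were called higher and 2 lower for the interaction, again beside 7.62% of all genes. Timm13, a small chaperone of the intermembrane space, had 1.72 ± 0.41, Tomm40, the outer membrane channel, had 1.02 ± 0.27, and Timm50, a presequence receptor, had 0.63 ± 0.18. Tomm22 (-1.40 ± 0.35) and Tomm5 (-1.04 ± 0.30), partners of Tomm40 in the same translocase, were lower. Tomm7 was higher for the host in treated tumours (1.40 ± 0.31, edgeR adjusted p = 0.0493). Of 21 nuclear genes of the respiratory chain 2 were called, Atp5o of the ATP synthase at 0.69 ± 0.19 and Ndufs1 of complex I at -0.88 ± 0.26. In the fit with the GC slope, 0 of the 11 mitochondrial list genes called for the interaction passed (edgeR adjusted p from 0.0930 for Timm13 to 0.412 for Ndufs1), and neither did Fis1 or Tomm7 for the host in treated tumours. The list medians of the interaction ran from -0.34 for the chaperones to 0.19 for the cardiolipin genes, beside 0.00 for all tested genes.

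Red cell markers moved with the groups. Of the 7-gene red cell list, 5 were found and 3 tested, and all 3 were called higher for the interaction: Hba-a1 and Hba-a2, which encode alpha globin, and Alas2 of haem synthesis. Their median difference was -2.23 under treatment in WT tumours and 2.16 in depleted tumours, the order seen for Stoml2. In the fit with the GC slope 0 of the 3 passed, at interactions of 3.67 for Hba-a1, 3.52 for Hba-a2 and 3.89 for Alas2. The summed level of the 5 found was 118 to 1484 CPM in WT untreated, 62.2 to 190 in WT anti-PD-L1, 30.0 to 104 in depleted untreated and 147 to 755 in depleted anti-PD-L1 tumours, and none was at 0 in a whole group. Stom, the red cell protein of the family, had -0.40 ± 0.26 in the same interaction. All 6 macrophage markers had negative interactions, with a median of -0.81 and 0 of 6 called by edgeR or at an unadjusted p under 0.05. Their sum ran from 36.3 to 119 CPM in WT untreated, 82.2 to 133 in WT anti-PD-L1, 42.5 to 174 in depleted untreated and 31.7 to 105 in depleted anti-PD-L1 tumours. Of 4 tested genes of skeletal muscle, Ttn was higher in depleted than in WT untreated tumours (1.49 ± 0.32, edgeR adjusted p = 0.0416), none of 4 endothelial genes was called by edgeR (at most 2 at an unadjusted p under 0.05), and none of 6 T cell genes was abundant enough to test. The part of these cells in the Stoml2 values was not tested.

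The Stoml2 values depended on the processing as follows. As its groups do not overlap, leaving out a library cannot turn a direction, and the ranges give sizes only. The difference under treatment ran from -0.97 to -0.66 in WT tumours and from 0.53 to 0.69 in depleted tumours. The host difference ran from -0.93 to -0.74 in untreated and from 0.47 to 0.75 in treated tumours, and the interaction from 1.22 to 1.59.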

How the data were processed

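Total RNA of each tumour was depleted of ribosomal RNA and made into libraries with the Ion Total RNA-Seq Kit v2. The authors deposited raw read counts per gene with an mm10 annotation, a percent GC content for each gene, and a log2 expression table; the submitters' processing notes name DESeq with no version. The aligner and the counter were not given in the sources. Gene length equalled the genomic span in all 38087 genes, so introns may have been counted. Whether they were, and whether strand was used in counting, was not established here. The deposited log2 values were centred per gene; 13 damaged rows were left out and 25934 genes were kept. The 32 per-library columns of coverage were not used.

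Counts were tested with edgeR 4.0.16 (trimmed-mean scaling, filterByExpr, robust quasi-likelihood) over all 16 libraries with 4 group terms. Benjamini-Hochberg adjustment covered 19340 genes, with a threshold of 0.05. Log2 CPM used a prior count of 2, and GC slopes used genes of at least 1 CPM. Alternatives were DESeq2 1.42.0, limma 3.58.1 with voom or on the deposited log2 values, median ratio and total scaling, no filter, fits of 2 groups, the GC slope as a covariate, and leaving out each library. The code was tested on simulated data.

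Named were the 8 genes, list genes called in any of the 5 comparisons or otherwise the 2 with the smallest p, the 10 genes most correlated with Stoml2, and tested genes within 100 kb. The members and lists were chosen with earlier results of these data known. No sequence is printed. Group letters come from the column names and could not be tied to the replicate numbers of the labels.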

Additional observations from a re-analysis of the deposited data

Results flagged for a closer look

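For Stoml2, every treated WT tumour was below every untreated WT tumour (-0.89), and every treated depleted tumour was above every untreated depleted tumour (0.63). The hosts likewise did not overlap, with depleted tumours lower when untreated (-0.86) and higher when treated (0.66). The gene was chosen for this pattern, and the difference between hosts was not tested.

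Parl and Phb2 differed between hosts in their response to treatment by the interaction test of edgeR, at 0.87 (adjusted p = 0.0246) and 1.14 (adjusted p = 0.0495). With the GC slope as a covariate neither passed the threshold.

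In the 32 sets of 4 libraries formed by the 8 genes and 4 groups, no library was flagged by Dixon's criterion. Chance exceeds this criterion in about 1 of 20 sets. With 4 libraries a set it flags extreme gaps only, so it cannot decide whether a library stood apart. Phb2 in depleted untreated library B was not flagged, at 186.2 CPM against 458.1 to 524.0 CPM in libraries A, C and D.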

How the results depend on the processing

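No paired analysis was possible because the count columns carry letters, the labels carry numbers that cannot be tied to them, and each tumour came from a separate mouse. Of the 7 genes other than Stoml2, the number called for anti-PD-L1 in WT tumours was 3 with DESeq2 (8.9% of all genes called) and 5 in the fit of 2 groups (29.6%), against 0. For the host in treated tumours it was 1 with DESeq2 (7.72%) and 2 in the fit of 2 groups (14.3%), against 0. For the interaction it was 4 with DESeq2, 1 with library totals alone, 1 without a filter, 0 with the GC slope as a covariate and 0 on the deposited log2 values, against 2. Leaving out each library gave 0 to 5 for anti-PD-L1 in WT tumours and 0 to 4 for the host in treated tumours, with the highest counts without depleted untreated library B (21% and 18.6% of all genes called). For the interaction leaving out each library gave 0 (WT untreated C or D) to 5 (depleted untreated D). Over all genes, 281 of 19667 were called without WT untreated C, 456 of 19618 without D and 3890 of 19531 without depleted untreated D.

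Over all tested genes, the interaction had 1474 calls, 3242 with DESeq2, 945 without a filter, 176 with the GC slope as a covariate and 175 on the deposited log2 values. With library totals alone, 696 of 1656 calls were higher, against 918 of 1474.

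With the GC slope as a covariate the sign changed for Yme1l1 under anti-PD-L1 in WT (-0.0363) and depleted tumours (0.0074), for the host in untreated tumours (-0.19) and for the interaction (0.0437), for Phb under anti-PD-L1 in depleted tumours (-0.0098) and for Opa1 for the host in untreated tumours (-0.0331). The interaction of Stoml1 was -0.0455 with library totals alone and -0.0055 on the deposited log2 values, and -0.0568 to 0.21 when leaving out each library. Leaving out each library also gave values of both signs for 5 others: -0.35 to 0.0029 for Opa1, -0.0389 to 0.22 for Phb and -0.65 to 0.0766 for Yme1l1 under anti-PD-L1 in depleted tumours, -0.0909 to 0.62 for Yme1l1 for the host in untreated tumours, and -0.23 to 0.0422 for Stom for the host in treated tumours. The causes were not tested. The GC slope was estimated from the same counts, and with 4 tumours a group small differences of Stom and Stoml1 could not be resolved.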
